A study of Drosophila melanogaster with 15 samples.

Results

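Polycomb group proteins keep developmental genes silent, and the 10 genes described here encode the core of that system in the fly. They are Pc, E(z), esc, Su(z)12, Psc, Su(z)2, ph-p, ph-d, Sce and Scm. They were found by matching the current gene symbol to the FlyBase gene identifier, and all 10 are among the 17559 genes listed in each library. The libraries are INTACT-RNAseq libraries, made from RNA of tagged nuclei that were pulled from homogenates of 50 to 60 fly heads with beads carrying an antibody to GFP. The nuclei are labelled as coming from the mushroom body (MB), a paired structure of the insect brain needed for learned behavior. Both genotypes carried the nuclear tag UAS-unc84::GFP, the RNAi enhancer UAS-Dicer2 and the R14H06-Gal4 driver, so the controls also expressed the tag and Dicer2. Flies with knockdown of trithorax (trx-KD) carried in addition the RNAi construct P{GD4502}v37715. Flies of each genotype were either trained or naïve. There were 4 trained control, 4 naïve control, 4 trained trx-KD and 3 naïve trx-KD libraries. The labels do not give the age of the flies or the time after training. They do not say whether replicate pools came from separate crosses, so the tests measure the spread between these pools.

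Polycomb proteins act in a pair of main complexes. Polycomb repressive complex 2 (PRC2) methylates histone H3 at lysine 27, and Polycomb repressive complex 1 (PRC1) binds that mark, compacts chromatin and ubiquitinates histone H2A. The trithorax group, named after trx, opposes Polycomb silencing and maintains the active state of many of the same target genes. In neurons, Polycomb silencing is known for keeping genes of other cell fates off. The purpose of the comparisons was to follow MB expression after training, in flies with and without knockdown of trx. Expression is given as CPM, read counts scaled to a common library total with edgeR's trimmed mean method (TMM), with the SD over libraries. Differences between groups are log2 fold changes from edgeR's quasi-likelihood test, with p values adjusted by the Benjamini-Hochberg method over all genes tested and an adjusted p (FDR) under 0.1 counted as a call.

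The libraries held 14154045 to 45976562 counts on genes. The targeted gene trx lay at 561 to 609 CPM in the 8 control libraries and at 499 to 550 CPM in the 7 trx-KD libraries. The genotypes did not overlap, but the reduction in these counts was small. The share of all genes separated in this way was not determined. The counts are of nuclear RNA with its introns, from pools that also held other cells, so they do not measure the strength of the knockdown. Markers of Kenyon cells, the intrinsic neurons of the MB, summed to 16912 to 19930 CPM in naïve controls, 18221 to 20184 in trained controls, 18518 to 19734 in naïve trx-KD flies and 20851 to 23615 in trained trx-KD flies. Of these 15 markers, 2 were called higher in trx-KD flies in the naïve state and 8 in the trained state. Markers of other cells were present in every library, with photoreceptor markers at 6706 to 14211 CPM in sum, and 3 of 4 muscle markers in naïve flies and 2 of 4 in trained flies were called lower in trx-KD flies. In naïve flies 2 of 6 glial, 2 of 7 fat body and 2 of 4 hemocyte markers were also called lower in trx-KD flies. In trained flies 1 of 6 glial markers was called lower, and 2 of 7 fat body and 1 of 3 hemocyte markers were called higher. No photoreceptor marker of the 9 tested was called in either state. Trained trx-KD replicate 4 stood apart. It held 142 CPM of the yolk protein gene Yp1, against at most 1.13 CPM in the other 14 libraries. The part of these differences in the results below was not tested. Under the main settings, calls of Polycomb genes and their targets between genotypes that use that library are also given without it. The calls of markers and of trx are given with that library only.

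Of the 10 Polycomb genes, esc could not be measured. It encodes the WD-repeat subunit of PRC2 and had 0 counts in all 15 libraries. The gene occupies chromosome 2L from 11827204 to 11829405 on the minus strand (BDGP6.54, dm6 coordinates) and lies wholly inside an intron of Pde1c, a cyclic nucleotide phosphodiesterase gene on the same strand. Genes in such a position rarely had counts in these tables. Of 1841 protein-coding genes that lie wholly inside another gene, 1829 (99.3%) were at 0 in every library, against 280 of 11844 (2.36%) of those that do not. The share was 99.1% for genes inside a host on the same strand and 99.5% for genes inside a host on the other strand. This is the pattern given by counting reads over whole gene bodies without regard to strand and leaving out reads that fall on overlapping genes. The 0 of esc therefore sets no limit on its expression, and 9 of the 10 genes were tested. The host Pde1c itself was at 1164 to 1691 CPM.

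**Figure D1:**
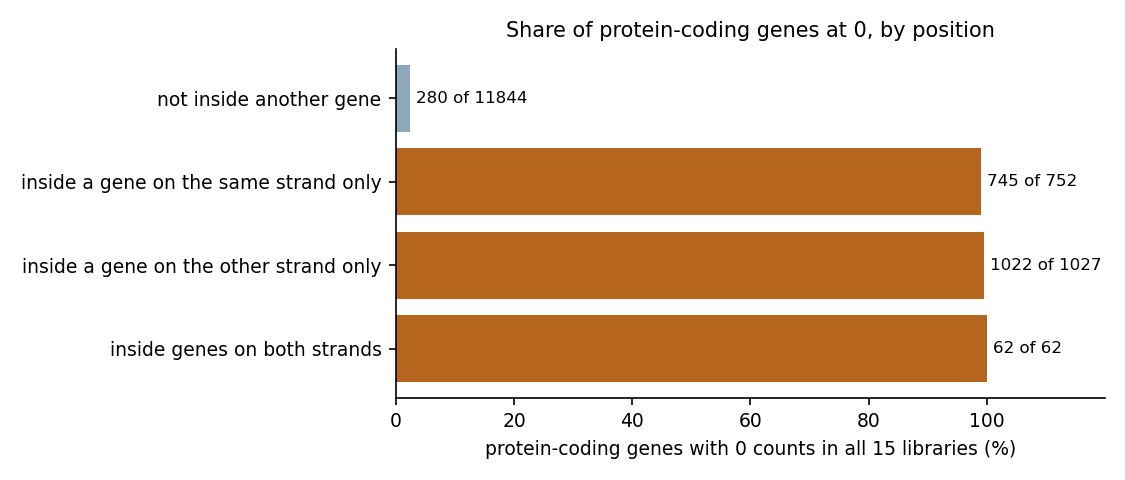
Percentage of protein-coding genes with 0 counts in all 15 libraries, by position relative to other genes, with the number at 0 of the number in each class beside the bar. Genes inside another gene were at 0 in 99.1% to 100% of cases whatever the strand, and esc belongs to the class inside a gene on the same strand.

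The nearest stand-in for esc in PRC2 is escl, its paralog, which lies on the same chromosome arm and is counted. It was low, at 2.91 to 6.11 CPM over the 15 libraries. Its mean was 4.24 ± 1.38 CPM in naïve controls (SD, n = 4), 3.97 ± 0.79 in trained controls (n = 4), 5.75 ± 0.59 in naïve trx-KD flies (n = 3) and 5.11 ± 0.99 in trained trx-KD flies (n = 4). The log2 fold change between genotypes was 0.45 in naïve flies (adjusted p = 0.258) and 0.35 in trained flies (adjusted p = 0.281), and the groups overlapped in both. Averaged over trained and naïve flies in 1 fit of all 15 libraries, a test added after the data had been seen, the difference was called at 0.40 (adjusted p = 0.0868), where 26.4% of all 9749 genes were called. Without trained trx-KD replicate 4 it was 0.36 and not called (adjusted p = 0.151).

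All 9 countable genes had counts in every library. Markers of other cells were present in every library too, so these counts cannot be assigned to MB nuclei alone. The order of the 9 genes depended on the length used, because nuclear RNA holds introns and the counts cover them. Per kilobase of exon, the mean level over 15 libraries was 26.6 CPM for Su(z)2, 24.8 for Pc, 22.8 for Scm, 16.1 for ph-d, 14.8 for ph-p, 11.6 for Su(z)12, 7.77 for E(z), 7.05 for Sce and 6.56 for Psc. The median over 9095 protein-coding genes was 8.44 on this scale. Only 3 of the 8 steps in this order held in all 15 libraries, namely Scm above ph-d, ph-p above Su(z)12 and Su(z)12 above E(z). In the other 5 steps the order held in 9 to 11 of 15 libraries, so those neighbors did not differ beyond their spread.

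Per kilobase of gene body free of other genes, Scm came first with 23.6 CPM and Su(z)2 second with 15.6, followed by ph-d with 13.0, Su(z)12 with 9.08, ph-p with 8.38, Sce with 6.80, E(z) with 5.88, Pc with 5.17 and Psc with 2.77. The median of protein-coding genes was 5.84 on this scale. Pc moved from the second to the eighth place. It has 2462 bases of exon in a gene of 11883 bases, and a roo transposable element of 9101 bases lies in it. Transposable elements were not taken out of the gene body length. The eighth place of Pc therefore rests on a length that holds this element. The same holds for the place of ph-p, in which an element of 1446 bases lies. Psc was last on both scales. Psc and Su(z)2 encode related RING finger proteins that can stand in for each other in PRC1, and Su(z)2 was the more abundant of the pair in every library on the exon scale, with a Psc to Su(z)2 ratio of 0.231 to 0.288.

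Levels varied little between libraries. The highest library exceeded the lowest by a factor of 1.09 for Su(z)2, 1.19 for ph-d, 1.27 for Psc, 1.27 for Scm, 1.28 for ph-p, 1.34 for Su(z)12, 1.37 for E(z), 1.43 for Pc and 1.52 for Sce, whereas the median over 9749 genes was 1.68. For Su(z)2, CPM lay between 171 and 187 in all 15 libraries, and 4 of 9749 genes had a smaller range. When libraries were scaled by their total counts alone, this factor was 1.19 for Su(z)2, with 270 genes steadier, and 1.15 for ph-d, with 104 genes steadier. Sce, the gene with the widest range, also had the fewest counts, 146 to 427 per library. The Polycomb genes were not compared with genes of like count, so their small spread cannot be told apart from an effect of count level.

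**Figure D2:**
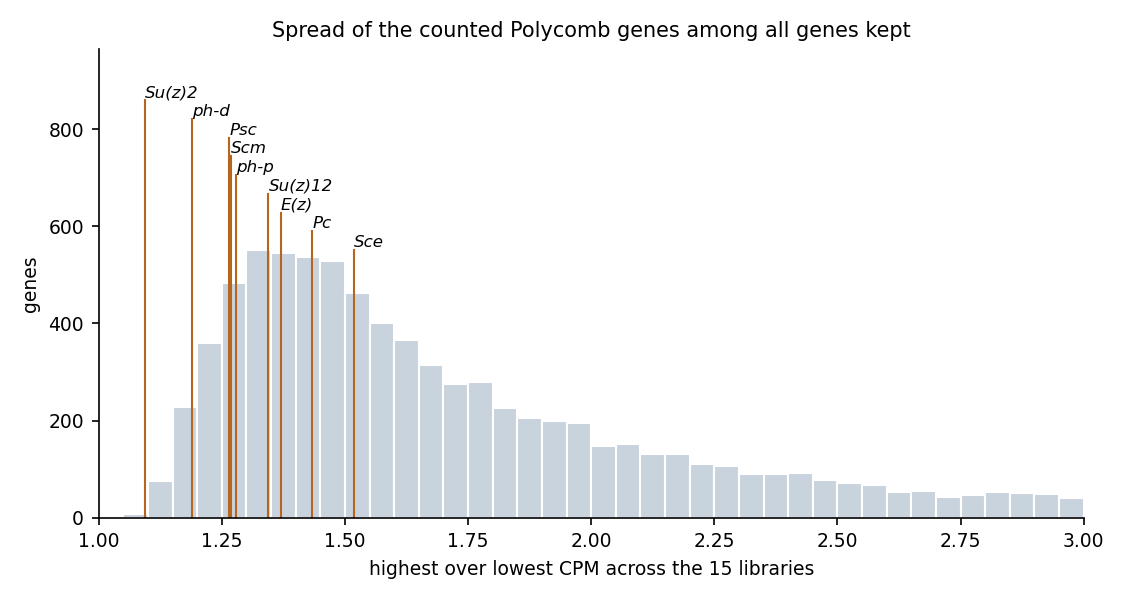
Histogram of the ratio of the highest to the lowest CPM over the 15 libraries for genes kept, with a line for each of the 9 Polycomb genes; 1844 of 9749 genes with a ratio of 3 or more are not drawn. All 9 lines lie below the median ratio of 1.68, from 1.09 for Su(z)2 to 1.52 for Sce.

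Knockdown of trx was accompanied by small shifts in 3 Polycomb genes and none of them exceeded a factor of 1.2. Pc was lower, and ph-d and Scm were higher, in trx-KD flies, while the PRC2 genes E(z) and Su(z)12 and the PRC1 genes ph-p, Psc, Su(z)2 and Sce were not called in either comparison or in the averaged fit when all libraries were used. Only the difference of Pc in naïve flies was called within 1 training state. All 3 were called when the genotype effect was averaged over trained and naïve flies, in a fit that called 26.4% of all 9749 genes, so that 3 of 9 was near the share of all genes.

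Pc encodes the chromodomain protein through which PRC1 recognizes methylated H3 lysine 27, and it lies on chromosome 3L from 21306138 to 21318020 (FBgn0003042). It was at 73.2, 57.7, 65.6 and 69.2 CPM in naïve controls and at 55.8, 58.7 and 52.4 CPM in naïve trx-KD flies. Naïve control replicate 2 fell within the range of the trx-KD libraries, so the groups overlapped. The log2 fold change was -0.25 (standard error 0.09, 95% interval -0.45 to -0.06, adjusted p = 0.0999), just inside the threshold. The call was lost without naïve control replicate 1 or 3 or without any of the 3 trx-KD libraries, with adjusted p between 0.0498 and 0.311 over the 7 fits, while the log2 fold change stayed between -0.32 and -0.21. In trained flies, Pc was at 65.6, 66.1, 64.5 and 60.3 CPM in controls and 59.3, 63.6, 51.1 and 53.2 CPM in trx-KD flies, and the difference of -0.18 was not called (95% interval -0.35 to -0.0025, adjusted p = 0.188). Pc shares 60 bases with CG7632 on the other strand, and reads from there were counted for neither gene.

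The gene ph-d encodes a Polyhomeotic protein, a PRC1 subunit that can form chains through its SAM domain. It lies on chromosome X from 2115727 to 2123286 (FBgn0004860). Controls were at 96.5, 90.3, 94.3 and 97.5 CPM when naïve and 95.2, 91.8, 92.5 and 93.8 CPM when trained. Flies with trx-KD were at 101, 105 and 105 CPM when naïve and 99.2, 107, 103 and 103 CPM when trained. On the TMM scale, all 7 trx-KD libraries lay above all 8 control libraries. The share of all genes separated in this way over both training states was not determined. The log2 fold change was 0.14 in naïve flies (95% interval -0.00054 to 0.27, adjusted p = 0.210) and 0.14 in trained flies (95% interval 0.03 to 0.26, adjusted p = 0.115), so neither state alone passed the threshold.

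Scm encodes a SAM domain protein that associates with PRC1, and it lies on chromosome 3R from 9633359 to 9637611 (FBgn0003334). It was at 82.6, 88.2, 86.4 and 90.0 CPM in naïve controls and at 96.6, 100.1 and 93.6 CPM in naïve trx-KD flies, without overlap. In trained flies it was at 90.7, 84.7, 89.6 and 95.4 CPM in controls and 88.7, 103, 99.6 and 105 CPM in trx-KD flies, and replicate 1 of the trx-KD group fell within the control range. The log2 fold change was 0.16 in naïve flies (adjusted p = 0.159) and 0.13 in trained flies (adjusted p = 0.243). Scm shares 315 bases with SpdS on the other strand, and reads from there were not counted for either gene. SpdS itself was at 1.01 to 2.96 CPM.

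Thus 1 of 9 genes was called between genotypes in naïve flies, where 14.2% of all 9419 genes tested were called, and 0 of 9 in trained flies, where 13.9% of 9237 were. In trained flies 3 of the 9 had an unadjusted p under 0.05, against 25.8% of all 9237 genes. DESeq2 called 1 of these 3, ph-d, and its share over all genes is not given here. Without trx-KD replicate 1, ph-d and Scm were called in trained flies (adjusted p = 0.0599 and 0.0653). That fit called 1808 of all genes, against 1284 with all libraries. Without replicate 2, Pc and Su(z)12 were called (adjusted p = 0.0638 and 0.0594). Without naïve control replicate 4, Pc, ph-d and Scm were called in naïve flies, in a fit that called 2558 of all genes, against 1333 with all libraries. Groups did not overlap for 2 of 9 genes in naïve flies and 1 of 9 in trained flies, against 23% and 17.8% of all genes. In the averaged fit, the log2 fold change was 0.14 for ph-d (standard error 0.04, adjusted p = 0.0122), -0.22 for Pc (standard error 0.06, adjusted p = 0.0181) and 0.15 for Scm (standard error 0.04, adjusted p = 0.0314). Each of the 3 was called in all 15 fits that left out 1 library. Without trained trx-KD replicate 4 the values were 0.14, -0.20 and 0.13, and E(z) was called as well, at 0.17 (adjusted p = 0.0794). Scaling by library totals alone ended the calls of ph-d (0.09, adjusted p = 0.109) and Scm (0.09, adjusted p = 0.152), but not that of Pc. For comparison, trx had a log2 fold change of -0.13 in this fit (adjusted p = 0.0118), a size similar to these 3. Within 1 training state, edgeR called trx in trained flies (-0.15, adjusted p = 0.0744). It did not call trx in naïve flies (-0.11, adjusted p = 0.304), the state in which Pc was called.

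**Figure D3:**
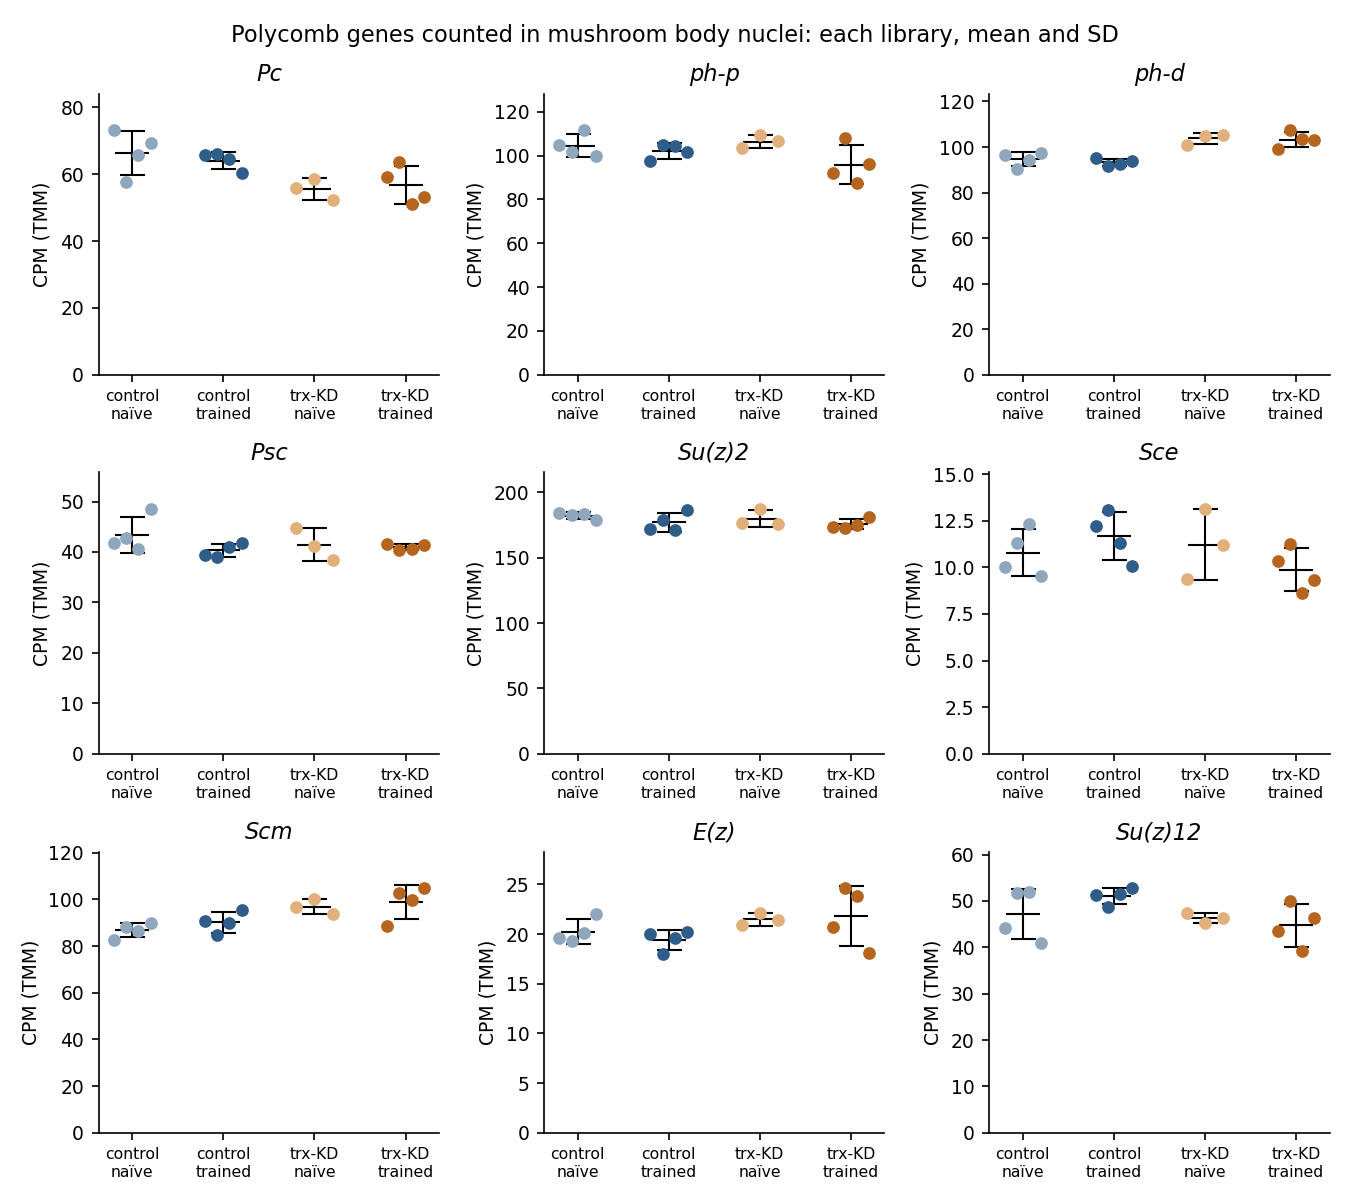
CPM of the 9 countable Polycomb genes in each of the 15 libraries by group, with the mean and SD of each group in black and each axis starting at 0. For ph-d the 7 trx-KD libraries (99.2 to 107 CPM) lie above the 8 control libraries (90.3 to 97.5 CPM), and Su(z)2 stays between 171 and 187 CPM. The share of all genes separated as ph-d is was not determined.

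The remaining genes are given by role. Of the PRC2 genes, E(z), the methyltransferase, was at 18.0 to 22.0 CPM in the 8 controls and 18.1 to 24.6 CPM in the 7 trx-KD libraries. Its log2 fold change was 0.09 in naïve flies and 0.17 in trained flies (adjusted p = 0.605 and 0.369). Su(z)12, the zinc finger subunit that PRC2 needs for activity, was at 41.0 to 52.8 CPM in controls and 39.2 to 50.1 CPM in trx-KD flies. It had log2 fold changes of -0.02 and -0.19 (adjusted p = 0.922 and 0.165), and its 95% interval in trained flies was -0.37 to -0.01. The low end of that group was trained trx-KD replicate 3, which was also the lowest of the 15 libraries for Pc, ph-p and Sce. Without that library the value of Su(z)12 was -0.13.

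In PRC1, ph-p, the neighbor and near copy of ph-d, was at 97.4 to 112 CPM in controls and 87.3 to 109 CPM in trx-KD flies. Its log2 fold change was 0.03 in naïve flies and -0.09 in trained flies (adjusted p = 0.823 and 0.445). Psc was at 38.9 to 48.5 CPM in controls and 38.3 to 44.8 CPM in trx-KD flies. Su(z)2 was at 171 to 186 CPM and 173 to 187 CPM, with log2 fold changes of -0.01 in both states. The 95% intervals of Su(z)2, -0.14 to 0.11 in naïve flies and -0.12 to 0.10 in trained flies, were the narrowest of the 9 genes in both comparisons. Sce, the RING finger protein that ubiquitinates H2A, was at 9.51 to 13.1 CPM in controls and 8.64 to 13.1 CPM in trx-KD flies. Its interval was the widest, from -0.51 to 0.03 in trained flies around a value of -0.24 (adjusted p = 0.242), so changes of that size were not resolved at its counts.

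**Figure D4:**
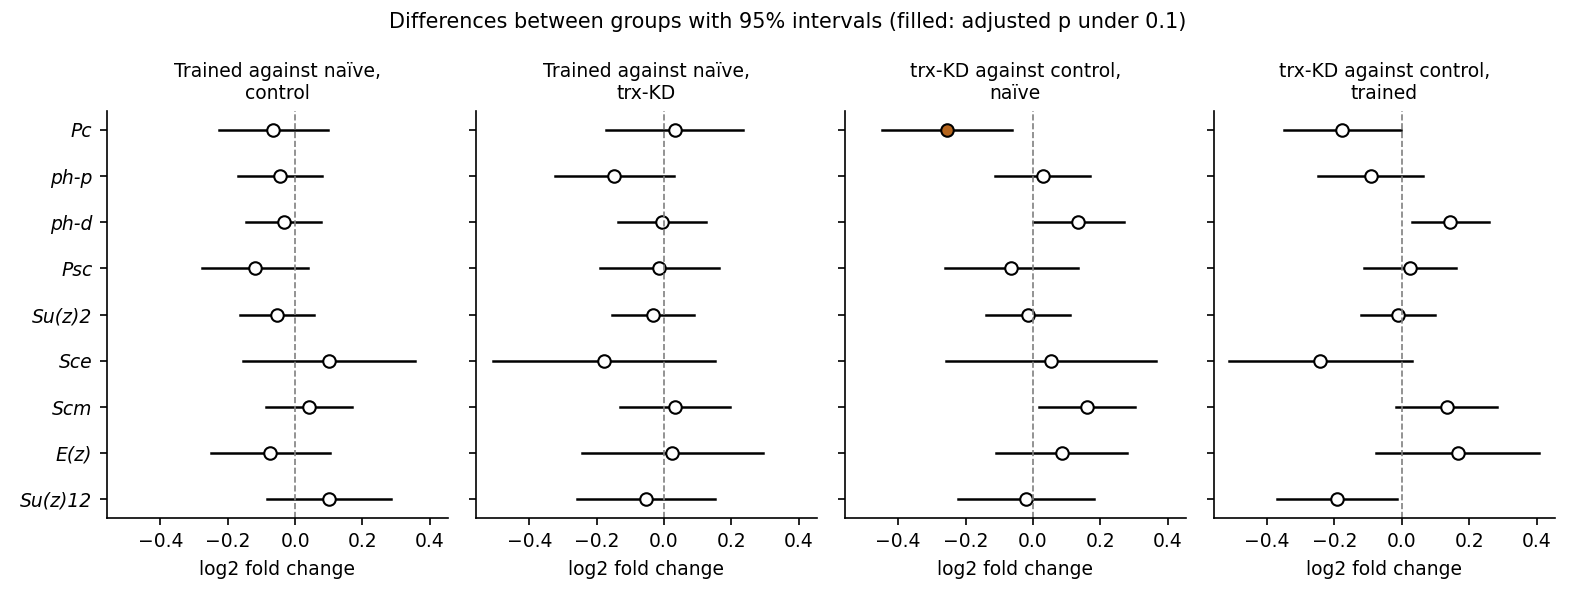
Log2 fold changes of the 9 countable Polycomb genes (points) with 95% intervals (lines) in 4 comparisons, trained against naïve flies of each genotype and trx-KD against control flies in each training state. The only filled point, called at an adjusted p under 0.1, is Pc in naïve flies at -0.25, and all 36 points lie between -0.25 and 0.17.

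The genes ph-p and ph-d lie 2923 bases apart on chromosome X with no gene between them and encode similar proteins, so reads that fit both may have been lost or split. Per kilobase of exon, the ratio of ph-p to ph-d was 0.909 to 1.05 in naïve controls and 0.909 to 1.02 in trained controls. It was 0.899 to 0.925 in naïve trx-KD flies and 0.751 to 0.894 in trained trx-KD flies. The trained trx-KD libraries therefore all lay below every control library, while the naïve trx-KD libraries overlapped the controls. The Psc to Su(z)2 ratio showed no such separation, with medians of 0.245, 0.241, 0.233 and 0.247 in naïve controls, trained controls, naïve trx-KD and trained trx-KD flies. These ratios are given as a description without a test.

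Training was not accompanied by a called change in any of the 9 genes in either genotype. In control flies, log2 fold changes of trained against naïve flies ran from -0.12 for Psc to 0.10 for Sce and Su(z)12, with 0 of 9 called against 4.38% of 9255 genes. In trx-KD flies they ran from -0.18 for Sce to 0.03 for Scm, with 0 of 9 called against 0.534% of 9370 genes. No member had an unadjusted p under 0.05 in either comparison, against 13.5% of all genes in controls and 12% in trx-KD flies. DESeq2 called 0 of 9 in both. The groups overlapped for all 9, where 9.91% of all genes in controls and 12% in trx-KD flies did not overlap. The largest difference with training by p was that of ph-p in trx-KD flies, from 106 ± 2.86 CPM in naïve flies (n = 3) to 95.9 ± 8.85 CPM in trained flies (n = 4), a log2 fold change of -0.15 (95% interval -0.32 to 0.03, adjusted p = 0.484). The 95% intervals in control flies reached at most -0.28 for Psc downward and 0.36 for Sce upward. Averaged over both genotypes, 0 of 9 were called against 5.16% of 9749 genes, and the smallest adjusted p was 0.420, for ph-p.

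Whether the training effect differed between genotypes was tested with an interaction term over all 15 libraries. None of the 9 genes was called by edgeR, none had an unadjusted p under 0.05, and DESeq2 called 0 of 9. Over all 9749 genes edgeR called 0 (0%), with 1055 (10.8%) at an unadjusted p under 0.05, and DESeq2 called 16. Estimates ran from -0.29 for Sce (95% interval -0.70 to 0.11) to 0.09 for Psc (95% interval -0.12 to 0.31). The most closely bounded gene was Su(z)2, with 0.01 and a 95% interval of -0.14 to 0.15.

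Beyond the core, 24 further Polycomb genes of 26 listed (DNA-binding recruiters, PRC2 accessory factors, PR-DUB and others) were tested. In the comparisons of genotypes, 0 of 24 were called in naïve flies (14.2% of all genes) and 2 in trained flies (13.9% of all genes), both higher. In naïve flies 4 of the 24 had an unadjusted p under 0.05, against 24% of all genes. Their median log2 fold change was 0.10 in naïve and 0.09 in trained flies, with 18 and 17 of 24 above 0, against -0.02 and -0.03 over all genes, of which 46.3% and 45.4% were above 0. The core genes had medians of 0.03 and -0.01. The called genes were corto, a chromodomain protein that interacts with both Polycomb and trithorax proteins, and Utx, the H3 lysine 27 demethylase that opposes PRC2. For corto the mean was 410 ± 6.84 CPM in trained controls and 478 ± 30.4 CPM in trained trx-KD flies (n = 4 each), a log2 fold change of 0.22 (adjusted p = 0.0323). For Utx it was 58.5 ± 2.14 CPM and 70.1 ± 7.95 CPM, a log2 fold change of 0.26 (adjusted p = 0.0820). Without trained trx-KD replicate 4, corto was called at 0.22 (adjusted p = 0.0919), Utx at 0.22 was not (adjusted p = 0.209), and 6.15% of all genes were called. The averaged fit called 6 of the 24, all higher in trx-KD flies, near the 26.4% of all genes. They were corto (0.16, adjusted p = 0.00514), Utx (0.22, adjusted p = 0.0116), the O-GlcNAc transferase gene sxc (0.20, adjusted p = 0.0212), the DNA-binding recruiter gene pho (0.18, adjusted p = 0.0358), the PR-DUB gene Asx (0.10, adjusted p = 0.0616) and escl. Without trained trx-KD replicate 4 the calls of Asx (adjusted p = 0.101) and escl were lost and the other 4 were kept, at 23.4% of all genes. With training, 0 of 24 were called in either genotype. In controls 0 and in trx-KD flies 2 had an unadjusted p under 0.05, against 13.5% and 12% of all genes. The interaction called 0 of 24, with 1 at an unadjusted p under 0.05, against 10.8% of all genes.

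Among genes known to be silenced by Polycomb proteins, Hox genes and other patterning genes, those called between genotypes were lower in trx-KD flies. Of 16 tested in naïve flies, 1 was called (14.2% of all genes, 7.88% lower), the Hox gene Antp, which went from 30.1 ± 3.94 CPM in controls (n = 4) to 19.0 ± 4.37 CPM in trx-KD flies (n = 3), a log2 fold change of -0.66 (adjusted p = 0.0228). In trained flies Antp had a log2 fold change of -0.32 and was not called (adjusted p = 0.523). Of 14 tested in trained flies, 2 were called (13.9% of all genes, 6.78% lower). The Hox gene Ubx went from 9.11 ± 1.32 to 4.69 ± 2.31 CPM (n = 4 each, log2 fold change -0.93, adjusted p = 0.0591), and the head patterning gene ems from 4.20 ± 0.45 to 2.87 ± 0.54 CPM (log2 fold change -0.55, adjusted p = 0.0830). In trained flies the groups overlapped for both. Neither was called without trained trx-KD replicate 4, at -0.77 for Ubx (adjusted p = 0.143) and -0.56 for ems (adjusted p = 0.163). The averaged fit called 5 of 17, all lower, where 26.4% of all genes were called and 13.9% were called lower. They were ems (-0.55, adjusted p = 0.0112), Ubx (-0.82, adjusted p = 0.0183), the homeobox gene unpg (-1.30, adjusted p = 0.0601), Antp (-0.49, adjusted p = 0.0714) and the Hox gene Abd-B (-1.53, adjusted p = 0.0796). Both unpg and Abd-B were scarce, with group means between 0.219 and 1.88 CPM. Without trained trx-KD replicate 4, Abd-B was not called (adjusted p = 0.124) and the other 4 were. For the listed genes outside the core, no other library was left out. The median over the list was -0.15 in naïve and -0.16 in trained flies, with 12 of 16 and 10 of 14 below 0. Fewer cells of a type that expresses such a gene and less RNA per cell cannot be told apart in these pools. Muscle and glial markers in both states, and fat body and hemocyte markers in naïve flies, included genes called lower in trx-KD flies. The muscle markers summed to 1787 to 3596 CPM in naïve controls, 1712 to 3392 in trained controls, 2012 to 2426 in naïve trx-KD flies and 1483 to 2504 in trained trx-KD flies, and their part in the result was not tested. With training, edgeR called 0 of 16 targets in controls and 0 of 13 in trx-KD flies. In each, 1 had an unadjusted p under 0.05, against 13.5% and 12% of all genes.

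The gene whose pattern over the 15 libraries was most like that of Pc was CG6013, with a root-mean-square difference of z-scored log2 CPM of 0.451, where the median over 9749 genes was 1.34. Among the 9 Polycomb genes themselves, the closest pair was ph-d and Scm, with 0.686, and the least alike were Pc and Scm, with 1.76. The neighbors ph-p and ph-d differed by 1.42. These distances were computed over libraries that share the scaling and are a description only.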

How the data were processed

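The authors deposited whole-number counts of reads per gene for each of the 15 libraries, by FlyBase gene ID and without normalization. The submitters' processing notes name STAR 2.5.3a, HTSeq 0.7.1 and dm6, without further settings. The way reads were assigned was read from the counts of nested genes. Symbols and positions came from BDGP6.54 by gene ID (17253 of 17559 IDs matched); the transgenic tag, 0.437% to 0.681% of counts, was left out. Genes were kept by filterByExpr (minimum count 10, minimum total 15), scaled by TMM and tested with edgeR 4.0.16 (R 4.3.3, limma 3.58.1) on the libraries of the groups compared, and on all 15 for the interaction and averaged effects. DESeq2 1.42.0, other scalings, no filter, a replicate block, a stricter threshold and leaving out each library were alternatives. Standard errors and 95% intervals come from the F statistic and its degrees of freedom.

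The Polycomb genes and lists were chosen with earlier results of these data known. All 10 genes are named. Genes of the wider and target lists are named if called in at least 1 of the 5 main fits (4 comparisons and the interaction), with escl in any case; those called in the averaged fit alone were named after their values had been seen, and cell type markers are given by counts, and the gene most alike is named for called members. Of the 26 further Polycomb genes and 20 targets, 25 and 19 matched a gene, and one of the former, z, was at 0 inside another gene. The 5 main fits were tested on simulated data before use, and the averaged fits were not. In the simulated genotype fits, genes changed by a log2 fold change of 0.25 were mostly missed. The fits recovered 3 of 50 in naïve flies and 4 of 50 in trained flies. They called 135 and 127 genes in all, against 1333 and 1284 in the data. The recovery therefore does not give the power of the genotype fits of the data. For training they recovered 4 of 49 in controls and 5 of 48 in trx-KD flies, and for the interaction 1 of 49. Of the genes called, 6.3% to 13.3% had not been changed.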

Additional observations from a re-analysis of the deposited data

Results flagged for a closer look

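In trained trx-KD flies, replicate 4 lay far from the other 3 libraries for the yolk protein genes, which are expressed in the female fat body and ovary. It held 142 CPM of Yp1 where the nearest other library of the group had 0.532, 110 CPM of Yp2 against 0.965, and 103 CPM of Yp3 against 6.18. The gap took up 0.997, 0.999 and 0.963 of the range of the group. In all, 63 groups of 4 libraries were examined for such a gap, including the 9 Polycomb genes, and chance gives about 1 in 20. That is 3.15 groups, against 3 flagged. The yolk protein genes were entered singly by name, whereas the marker lists were entered as sums. No Polycomb gene, ratio of paralogs or summed marker list was among those found. Without this library, none of the 9 genes was called in either comparison of trained trx-KD flies.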

How the results depend on the processing

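The 45 log2 fold changes of the Polycomb genes (9 genes in 5 comparisons) gave 747 values over the alternatives, of which 674 kept direction and call, 8 lost a call, 17 gained one and 48 turned direction; no called value turned direction. Over all genes, the replicate block gave 246 calls for training in controls (405 without), 8 for training in trx-KD flies (50 without) and 2712 for genotype in naïve flies (1333 without). Of 14 pairs of same-numbered libraries, 1 deviated together with r over 0.1 (range -0.119 to 0.141), so the numbers were not taken to pair libraries. For training in trx-KD flies, DESeq2 gave 242 calls, no filter 91, all 15 libraries 125 and an adjusted p under 0.05 gave 18. That threshold gave 703 calls for genotype in naïve and 721 in trained flies. DESeq2 gave 16 for the interaction. Of the 9 Polycomb genes, those called for genotype in naïve flies numbered 0 with upper-quartile scaling, RLE scaling, no filter or an adjusted p under 0.05, 2 with DESeq2 and 3 with the replicate block (Pc, Scm and ph-d), against 1. In trained flies ph-d alone, 1 gene, was called with RLE scaling, DESeq2 or all 15 libraries, against 0. The calls of DESeq2 over all genes for genotype are not given here.

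Values near 0 turned direction and were called under no setting. For training in trx-KD flies these were ph-d at 0.00058 with RLE scaling, and Pc at -0.022, E(z) at -0.033 and Scm at -0.025 with library size only. For genotype in naïve flies they were Su(z)12 at 0.0077 and Su(z)2 at 0.013 with upper-quartile scaling, ph-p at -0.0022 with library size only and Sce at -0.0020 with the replicate block. For genotype in trained flies, Su(z)2 was at 0.0036, 0.0088 and 0.0086 with upper-quartile scaling, RLE scaling and DESeq2, and Psc at -0.048 with library size only. For the interaction, Su(z)2 was at -0.037 and ph-d at -0.032 with library size only, and Su(z)2 at -0.0042 without a filter and -0.0017 with the replicate block. Averaging over training states gave -0.033 for ph-p, -0.094 for Sce and -0.021 for Psc, and averaging over genotypes gave -0.032 for Sce, -0.011 for Pc, -0.019 for E(z) and 0.029 for Su(z)12.

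Leaving out each library in turn gave 230 to 711 calls over all genes for training in controls, 4 to 160 for training in trx-KD flies, 330 to 2558 for genotype in naïve flies, 495 to 1808 for genotype in trained flies and 0 to 189 for the interaction. Polycomb genes called ranged from 0 to 3 for genotype in naïve flies, the 3 without naïve control replicate 4, and from 0 to 2 in trained flies, the 2 without trx-KD replicate 1 or 2. Ranges that crossed 0 were, for training in trx-KD flies, -0.027 to 0.081 for Pc, -0.036 to 0.10 for E(z), -0.028 to 0.0072 for ph-d, -0.070 to 0.045 for Psc and -0.11 to 0.0071 for Su(z)12. For genotype in naïve flies they were -0.12 to 0.0019 for Psc, -0.072 to 0.18 for Sce, -0.079 to 0.030 for Su(z)12 and -0.045 to 0.0067 for Su(z)2, and in trained flies -0.027 to 0.014 for Su(z)2. For the interaction they were -0.0025 to 0.039 for ph-d, -0.051 to 0.034 for Scm and -0.0097 to 0.042 for Su(z)2. The cause of these changes was not tested. The ratios of paralogs moved by less than the spread between replicates in all 38 alternative values, and 33 of 207 alternative values of a level per kilobase moved by more, mostly through the gene length used. Sce, with 146 to 427 counts per library, had the widest intervals, and smaller changes of this gene were not detectable at this depth.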
